A study of Mus musculus with 12 samples.

Results

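The genes examined here encode the proteasome, the protease that degrades ubiquitin-tagged proteins, together with its activators and assembly chaperones. Every gene whose symbol joins Psma, Psmb, Psmc, Psmd, Psme, Psmf or Psmg to a number was taken, which gave 48 of the 55401 genes in the files. They were measured in 2 CD4 T cell populations sorted from spleen. The mice were C57BL/6, infected for 21 days with Leishmania donovani, the protozoan that causes visceral leishmaniasis. One population, named TLCP in this text, was gated as LAG-3+ CXCR5+ PD-1lo/int. The other, called Tfh, was gated as CXCR5+ PD-1hi, a gate of T follicular helper cells that by the series description were mostly from germinal centers. All mice were infected and no genetic change is named in the labels, so no uninfected or naive group serves as a baseline. Each population had 6 libraries, numbered 1 to 6, and the series description gives 6 mice. A gene with higher counts in one population can have more RNA per cell or more cells that make it, and these cannot be told apart in RNA from sorted pools.

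In the proteasome, alpha subunits (Psma genes) form the outer rings of the barrel-shaped core and beta subunits (Psmb genes) the inner rings, where Psmb5, Psmb6 and Psmb7 carry the catalytic sites. A regulatory particle of ATPases (Psmc genes) and other subunits (Psmd genes) binds ubiquitinated proteins, unfolds them and feeds them into the core. Lymphocytes, and other cells exposed to interferon-gamma, also make Psmb8, Psmb9 and Psmb10, which replace Psmb5, Psmb6 and Psmb7 respectively in newly built cores. The result is the immunoproteasome, known for producing peptides that MHC class I presents. Psme1 and Psme2 encode PA28 alpha and beta, an interferon-induced activator ring that caps the core without needing ATP. Psmf1 encodes the inhibitor PI31, and the Psmg genes encode chaperones that help assemble the core.

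The genes of the immunoproteasome are known targets of interferon-gamma signalling, and the constitutive genes are known targets of NRF1, a factor that binds antioxidant response elements. The RefSeq promoter table held windows of 300 bases, from 250 before to 50 after each annotated start (build GRCm38.p6), and 43 such windows matched 40 of the 48 genes. The windows of the genes that the results turn on are given here, 5′ to 3′ on the strand of the gene, with a chosen matched motif in capitals. Matches to other motifs searched are left in lower case, such as GGGCGG, on either strand, in the windows of Psme1 and Psmb6. Psmb9 (chr17:34187281-34187580, minus strand) has a GC box, GGGCGG, from base -55 to -50 of its start. Psmb8 (chr17:34197945-34198244, plus strand) has a match to the gamma-activated site, TTCNNNGAA, from base -97 to -89. Psmb10 (chr8:105938343-105938642, minus strand) has no match to any motif searched. Psme1 (chr14:55578244-55578543, plus strand) has the core of an interferon-stimulated response element on its opposite strand, from base 10 to 19. Psmb5 (chr14:54617946-54618245, minus strand) and Psmb6 (chr11:70525107-70525406, plus strand) each have a match to the antioxidant response element, TGACNNNGC, from base -47 to -39 and from base -9 to -1.
Psmb9: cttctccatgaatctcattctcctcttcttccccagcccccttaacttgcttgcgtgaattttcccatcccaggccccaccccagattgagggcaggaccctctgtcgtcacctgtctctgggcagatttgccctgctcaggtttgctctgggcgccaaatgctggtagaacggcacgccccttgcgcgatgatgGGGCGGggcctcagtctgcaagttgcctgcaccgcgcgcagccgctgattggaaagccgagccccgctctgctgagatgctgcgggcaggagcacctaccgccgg
Psmb8: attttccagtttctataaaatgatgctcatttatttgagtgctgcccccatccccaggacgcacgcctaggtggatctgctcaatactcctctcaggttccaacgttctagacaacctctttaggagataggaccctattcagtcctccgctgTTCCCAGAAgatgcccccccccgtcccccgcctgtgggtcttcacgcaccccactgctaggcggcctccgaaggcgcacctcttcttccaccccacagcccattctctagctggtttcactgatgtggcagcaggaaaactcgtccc
Psmb10: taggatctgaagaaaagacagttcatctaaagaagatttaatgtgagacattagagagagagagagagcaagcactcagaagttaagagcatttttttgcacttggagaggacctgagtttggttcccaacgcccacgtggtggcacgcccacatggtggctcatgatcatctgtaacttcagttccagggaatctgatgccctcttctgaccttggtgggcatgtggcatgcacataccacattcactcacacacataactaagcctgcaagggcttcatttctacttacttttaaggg
Psme1: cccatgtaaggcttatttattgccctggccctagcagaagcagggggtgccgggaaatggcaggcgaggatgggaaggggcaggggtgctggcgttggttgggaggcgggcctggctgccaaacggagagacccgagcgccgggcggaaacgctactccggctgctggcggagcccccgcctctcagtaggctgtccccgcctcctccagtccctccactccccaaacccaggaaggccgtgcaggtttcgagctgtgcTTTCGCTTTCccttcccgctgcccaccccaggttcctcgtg
Psmb5: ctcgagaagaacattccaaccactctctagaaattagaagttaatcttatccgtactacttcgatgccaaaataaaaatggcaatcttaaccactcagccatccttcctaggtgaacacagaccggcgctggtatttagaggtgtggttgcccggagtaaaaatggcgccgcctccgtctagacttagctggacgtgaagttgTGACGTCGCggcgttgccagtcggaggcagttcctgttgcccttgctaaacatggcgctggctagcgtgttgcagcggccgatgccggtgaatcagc
Psmb6: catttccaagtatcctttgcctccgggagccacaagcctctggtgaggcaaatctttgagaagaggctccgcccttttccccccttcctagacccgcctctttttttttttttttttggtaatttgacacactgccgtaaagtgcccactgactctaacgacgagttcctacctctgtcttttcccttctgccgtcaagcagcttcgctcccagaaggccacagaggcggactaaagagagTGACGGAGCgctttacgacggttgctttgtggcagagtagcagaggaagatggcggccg

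Motifs were searched on both strands, each by itself, and matches of different motifs could overlap. The interferon-stimulated element core, spelled GAAA, any 2 bases, GAAA, was in 5 of the 43 windows, those of Psmb3, Psmd4, Psmd9, Psme1 and Psmg4, and in 3.44% of the 32851 windows in the table. TTCNNNGAA was in 3 member windows, those of Psmb8, Psmd2 and Psmg1, and in 8.3% of all windows. TGACNNNGC was in 6 member windows, including Psmb5 and Psmb6, and in 12.4% of all. The NF-kB motif, spelled GGGA, any 4 bases, CC, was in 9 member windows, or 20.9%, and in 20.7% of all. GGGCGG was in 24 member windows, or 55.8%, and in 35.7% of all. These matches describe letters in the windows and were not tested.

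Psmb9 and Psmb8 lie on chromosome 17 (GRCm38) among genes of MHC class I peptide loading. In the gene annotation, Psmb9 spans 34181987 to 34187764 on the minus strand, Tap1 34187553 to 34197225, Psmb8 34197721 to 34201454 and Tap2 34203527 to 34216321, the last 3 on the plus strand. Tap1 and Tap2 encode the transporter that carries peptides made by the proteasome into the endoplasmic reticulum. The RefSeq start sites of Psmb9 and Tap1 are 226 bases apart on opposite strands, and their promoter windows share 275 bases, so most of the Psmb9 window printed above is also the Tap1 window. Psmb10 is on chromosome 8 from 105935735 to 105938444. Psme1 and Psme2 are neighbours on chromosome 14, with 5911 bases between them.

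The libraries held 6939770 to 12688306 reads on genes, of which 23149 to 46939, or 0.306% to 0.408%, fell on the 48 genes. The floor of a library, 3 counts of its total, lay at 0.236 to 0.432 CPM (counts per 1e6 reads) and covers counting error only. The 7 CD4 T cell markers summed to 2700 to 3173 CPM (from here on TMM-scaled) in TLCP and 3390 to 3811 CPM in Tfh, and 6 of them were lower in TLCP. Transcripts of other cells were also present. The 10 B cell markers summed to 5249 to 24400 CPM in TLCP and 1232 to 2343 CPM in Tfh. Most of this sum was Ighm, at 3730 to 22790 CPM in TLCP and 799 to 1561 CPM in Tfh. By the test described below, 8 of the 10 were higher in TLCP, against 16.8% of all genes, and Pax5 and Cd22 were not called. The 7 plasma cell markers summed to 1988 to 11500 and 181 to 1052 CPM, and the 6 basophil and mast cell markers to 26.1 to 96.2 and 0.239 to 7.17 CPM. The 8 macrophage and monocyte markers summed to 106 to 273 CPM in TLCP and 30.97 to 100.2 CPM in Tfh, and the 6 dendritic cell markers to 7.57 to 20.7 and 0.708 to 7.01 CPM. The sums of neutrophil, CD8 T and NK cell, and erythroid and platelet markers overlapped between the populations. No marker of these 8 lists was at 0 in all libraries. B cells, plasma cells, macrophages and dendritic cells also make proteasomes, and their part in the values below was not tested, except for a repeat without TLCP 4 and TLCP 5, the libraries with the most immunoglobulin.

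Of the 48 genes, 46 had enough counts for the test, edgeR's quasi-likelihood test on TMM-scaled counts with Benjamini-Hochberg adjustment over 12015 genes. Psmb9 and Psmb10 were higher in TLCP and 10 genes were lower: Psma2, Psma4, Psmb1, Psmb7, Psmc2, Psmc5, Psmd5, Psmd8, Psmd11 and Psmg1. The 2 higher genes are 4.35% of the members tested, against 16.8% of all genes tested. The 10 lower genes are 21.7%, against 16.4% of all genes. The differences were small. No member was called with a change of 2-fold or more, which 9.74% of all genes were, and the median absolute log2 fold change was 0.15 for members and 0.25 for all genes. Of the 46 genes, 34 had a negative log2 fold change (TLCP minus Tfh), or 73.9%, against 50.6% of all genes, and the median was -0.10 against -0.004 for all genes. The authors' deposited table, made by DESeq2 from the same counts, tested 47 of the genes and listed 2 as higher and 10 as lower. A DESeq2 fit made here to these counts gave 2 and 10 members, with 2418 higher and 1993 lower of all 17139 genes.

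**Figure D1:**
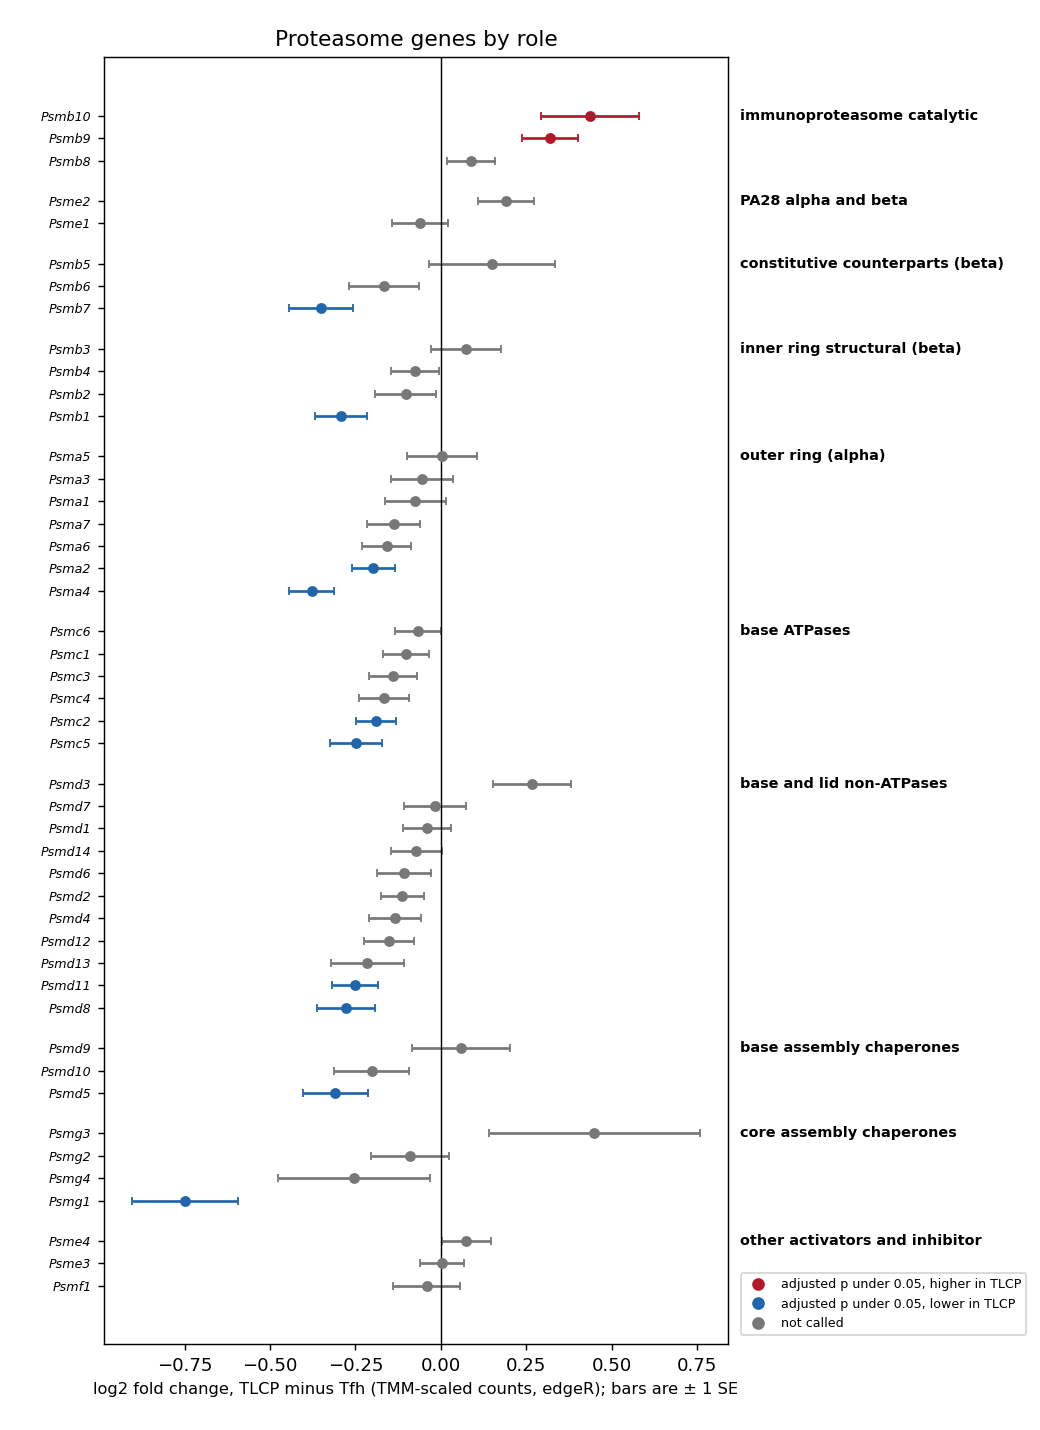
Log2 fold change (TLCP minus Tfh, TMM-scaled counts) of the 46 proteasome genes tested, grouped by role; points are edgeR estimates, bars ± 1 SE, and colour marks an adjusted p under 0.05. The 2 red points are Psmb10 and Psmb9, and the 10 blue points are spread over 7 of the other groups.

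Of the 3 catalytic subunits of the immunoproteasome, Psmb9 and Psmb10 were called higher, as were 16.8% of all genes, and Psmb8 was not. Psmb9, which encodes beta1i (LMP2), ranged from 92.1 to 112 CPM (median 104) in TLCP and from 64.5 to 93.6 CPM (median 85.4) in Tfh. TLCP was higher in each of the 6 pairs of libraries with the same number, although the highest Tfh library exceeded the lowest TLCP library. The log2 fold change was 0.32 (SE 0.082, adjusted p = 0.0048 by edgeR), a 1.25-fold difference. It was 0.31 (adjusted p = 0.0052) in libraries numbered 1 to 3 and 0.32 (adjusted p = 0.077) in those numbered 4 to 6. Without TLCP 4 and TLCP 5 it was 0.34 (adjusted p = 0.011).

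Psmb10, which encodes beta2i (MECL-1), ranged from 37.0 to 47.4 CPM (median 42.5) in TLCP and from 19.9 to 44.8 CPM (median 30.2) in Tfh. TLCP was higher in 6 of 6 pairs, and the spread was wider in Tfh, whose libraries numbered 1 to 3 were at 19.9 to 29.4 CPM and those numbered 4 to 6 at 30.9 to 44.8 CPM. The log2 fold change was 0.44 (SE 0.14, adjusted p = 0.026 by edgeR). It was 0.71 (adjusted p = 0.00030) in the libraries numbered 1 to 3 and 0.19 (adjusted p = 0.40) in the others. The call was lost when TLCP 5, TLCP 6, Tfh 1, Tfh 3 or Tfh 4 was left out, with adjusted p-values of up to 0.061 and log2 fold changes of at least 0.33 over all 12 such fits. Without both TLCP 4 and TLCP 5 the log2 fold change was 0.44 (adjusted p = 0.068).

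Psmb8, which encodes beta5i (LMP7), had the highest level per length of the catalytic genes and was not called. It ranged from 204 to 227 CPM (median 216) in TLCP and from 172 to 230 CPM (median 206) in Tfh, higher in TLCP in 5 of 6 pairs. The 3 lowest Tfh libraries lay below every TLCP library and the other 3 within or above the TLCP range. The log2 fold change was 0.09 (95% interval -0.05 to 0.23, adjusted p = 0.35). In Tfh the libraries numbered 1 to 3 were at 172 to 196 CPM and those numbered 4 to 6 at 216 to 230 CPM. In TLCP the corresponding ranges were 204 to 215 and 217 to 227 CPM.

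The activator genes of PA28 were also not called. Psme1 had the highest level per length of all members and ranged from 233 to 284 CPM (median 248) in TLCP and 227 to 314 CPM (median 252) in Tfh. Its log2 fold change was -0.06 (95% interval -0.22 to 0.10, adjusted p = 0.61). Psme2 ranged from 86.0 to 105 CPM (median 89.2) in TLCP and 69.8 to 92.9 CPM (median 81.2) in Tfh, higher in TLCP in 5 of 6 pairs. Its log2 fold change was 0.19 (SE 0.082, adjusted p = 0.082), and with the replicate number as a block it was 0.19 (adjusted p = 0.037) and was called. The block called 4 members higher, adding Psme2 and Psmd3, against 19.1% of all genes, and the same 10 lower, against 18% of all genes.

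Reads of Psme2 are shared with a near-identical copy. Of the 50-base words in its longest coding transcript, 59.3% also occur in exons elsewhere in the genome, and multimapping reads form a class of their own in the files that is counted for no gene. Psme2b, an intronless copy of Psme2 that is not among the 48 genes and was looked at after its values were seen, was at 23.7 ± 2.10 CPM (SD, n = 6) in TLCP and 13.6 ± 3.31 CPM in Tfh, with no overlap between populations. The log2 fold change of this copy was 0.80 (adjusted p = 0.00018 by edgeR). The level of Psme2 is therefore uncertain, also in comparison with Psme1, of which 14.1% of words occur elsewhere.

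**Figure D2:**
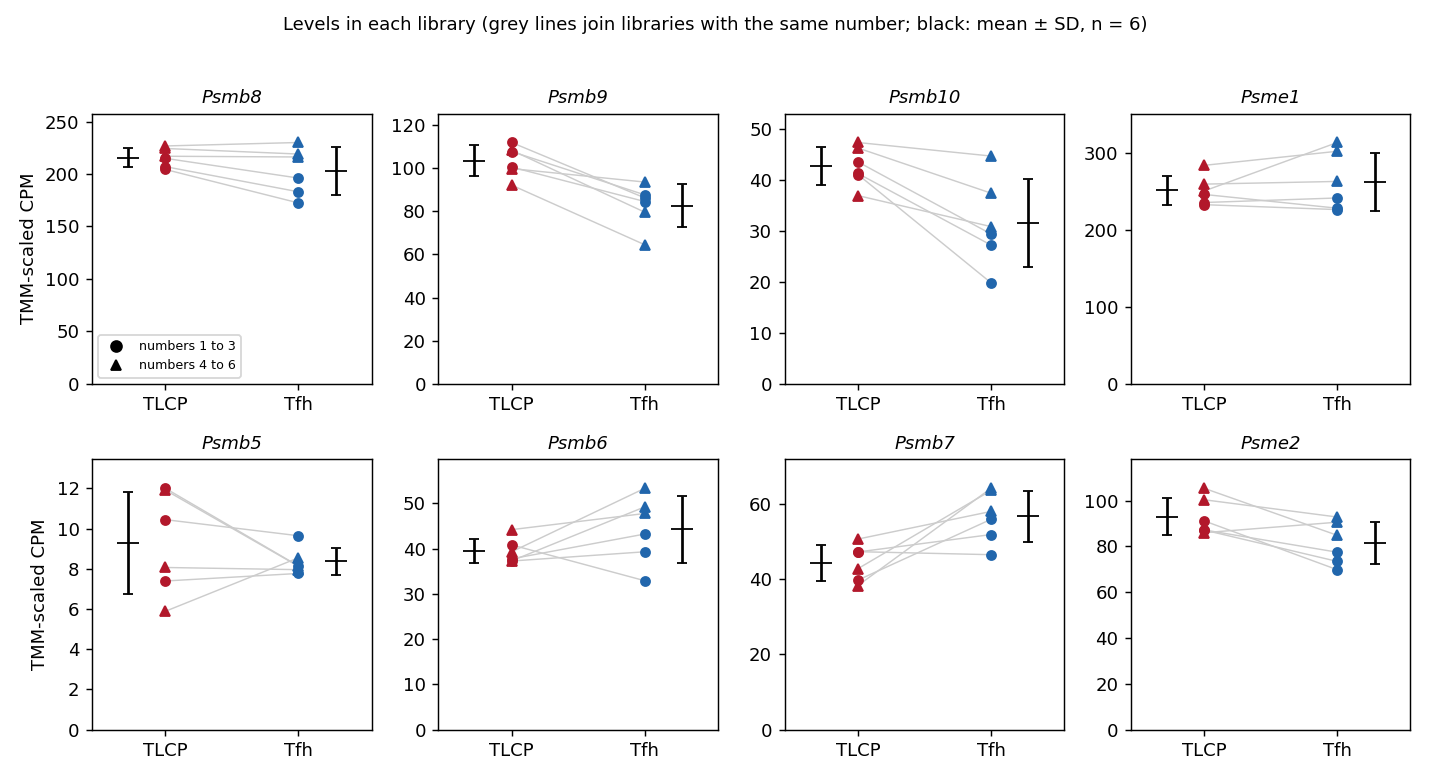
TMM-scaled CPM of the immunoproteasome catalytic genes, their constitutive counterparts and the PA28 genes in each library, with grey lines joining libraries of the same number and the mean ± SD (n = 6) in black. Every line falls from TLCP to Tfh for Psmb9 and Psmb10. For Psmb8 and Psme2 5 of 6 lines fall, and for Psmb6 and Psmb7 5 of 6 rise. The ranges of the populations overlap for every gene shown.

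Of the constitutive counterparts of these 3 catalytic genes, 1 was called lower and 0 higher, against 16.4% and 16.8% of all genes. Psmb7, which encodes beta2, ranged from 38.3 to 50.7 CPM (median 45.0) in TLCP and from 46.5 to 64.2 CPM (median 57.0) in Tfh, lower in TLCP in 5 of 6 pairs. The fitted log2 fold change was -0.35 (SE 0.094, adjusted p = 0.0064 by edgeR). Psmb6, which encodes beta1, was at 37.2 to 44.2 CPM in TLCP and 32.9 to 53.3 CPM in Tfh, with a log2 fold change of -0.17 (adjusted p = 0.23). Psmb5, which encodes beta5, was at 5.89 to 12.01 CPM in TLCP and 7.77 to 9.65 CPM in Tfh, with a log2 fold change of 0.15 (95% interval -0.21 to 0.51, adjusted p = 0.57). Psmb5 had 1022 reads over the 12 libraries, and 50% of the words in its transcript occur elsewhere, among them in the pseudogene Psmb5-ps.

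Within a library, the ratio of 2 genes does not depend on how libraries are scaled to each other. The 3 immunoproteasome genes made up 70.2% to 75.6% (median 72.9%) of the deposited TPM of the 6 catalytic genes in TLCP and 64.9% to 69.2% (median 67.0%) in Tfh. The share was higher in TLCP in 6 of 6 pairs, without overlap, with means of 72.6% ± 2.06 and 67.1% ± 1.79 (SD, n = 6). On the log2 scale the ratio of immunoproteasome to constitutive catalytic genes was 1.41 ± 0.15 in TLCP and 1.03 ± 0.12 in Tfh, a difference of 0.37. It differed by 0.32 among libraries numbered 1 to 3, by 0.43 among those numbered 4 to 6, and by 0.30 without TLCP 4 and TLCP 5. These ratios are descriptions and were not tested. Multimapping reads are counted for no gene, and 50% of the words of Psmb5 occur elsewhere. For Psmb6 this was 2.67%, and for Psmb7, Psmb8, Psmb9 and Psmb10 it was 0%. The level of Psmb5 is therefore uncertain, and with it the share and the ratios that include it.

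The log2 ratios of the matched pairs, each taken by itself, differed unequally between the populations. The part of each pair in the ratio of summed TPM was not computed. The ratio of Psmb10 to Psmb7 was 0.96 ± 0.16 (log2, SD, n = 6) in TLCP and 0.13 ± 0.27 in Tfh, and the populations did not overlap. Psmb9 to Psmb6 was 0.42 ± 0.13 in TLCP and -0.06 ± 0.37 in Tfh, higher in TLCP in 6 of 6 pairs, with an overlap. Psmb8 to Psmb5 was 2.67 ± 0.43 in TLCP and 2.68 ± 0.19 in Tfh, higher in 3 of 6 pairs. The pairs of the beta2 and beta1 sites thus differed in the mean by more than that of beta5, whose spread in TLCP was the widest of the 3. For PA28, the log2 ratio of Psme2 to the median of Psma1 to Psma7 was 0.73 ± 0.074 in TLCP and 0.42 ± 0.11 in Tfh, and that of Psme1 was 1.84 ± 0.079 and 1.78 ± 0.20. The ratio of Psme1 to Psme2 was lower in TLCP in each of the 6 pairs, at 1.11 ± 0.057 against 1.36 ± 0.12.

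**Figure D3:**
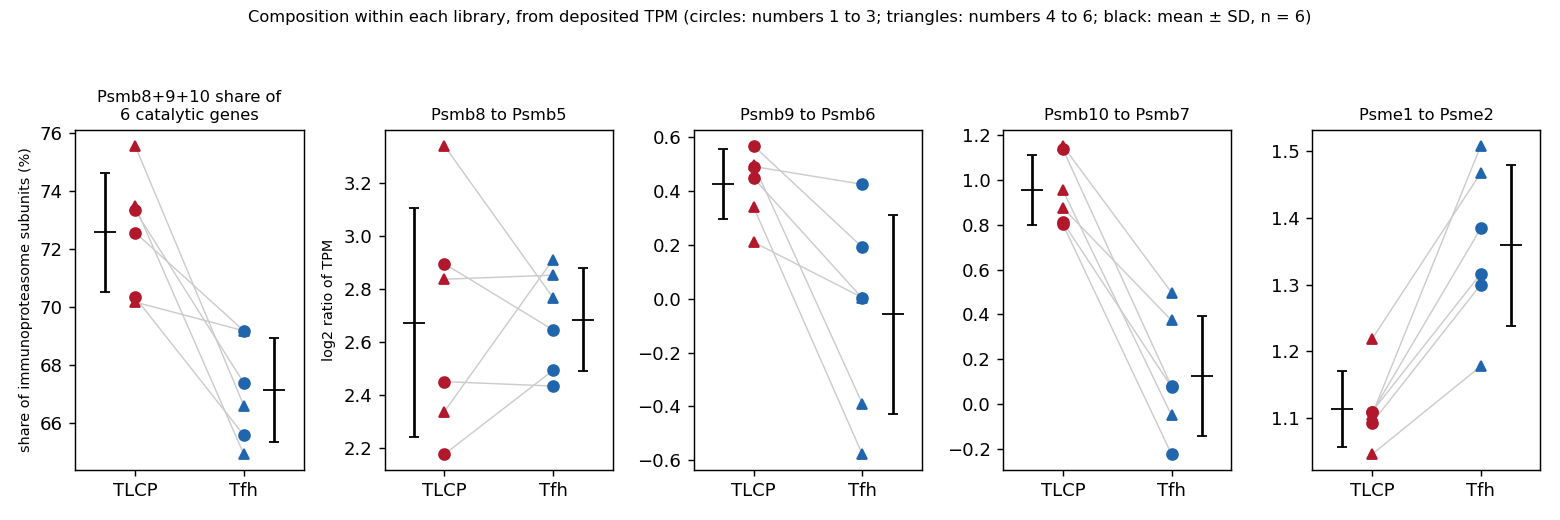
Composition within each library from the deposited TPM: the share (%) of Psmb8, Psmb9 and Psmb10 among 6 catalytic genes, and the log2 ratios of the 3 catalytic pairs and of Psme1 to Psme2, with mean ± SD (n = 6) in black. The share and the Psmb10 to Psmb7 ratio separate the populations, and the Psmb8 to Psmb5 ratio does not.

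The 31 constitutive genes of the 26S particle, the 14 of the core and the 17 of the regulatory particle, were mostly lower in TLCP by a small amount under TMM, and had a median log2 fold change of 0.04 with library totals alone. None was called higher, against 16.8% of all genes, and 8, or 25.8%, were called lower, against 16.4% of all genes. Of the 31, 27 had a negative log2 fold change, and the median was -0.13 against -0.004 for all genes tested. Their summed level was 2236 to 2469 CPM (median 2265) in TLCP and 2350 to 2757 CPM (median 2576) in Tfh. It was lower in TLCP in 6 of 6 pairs, with an overlap. The summed level of Psmb8, Psmb9 and Psmb10 was 346 to 380 CPM (median 363) in TLCP and 284 to 361 CPM (median 312) in Tfh, higher in TLCP in 6 of 6 pairs.

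Among the alpha subunits, 2 of 7 were called lower and 0 higher, against 16.4% and 16.8% of all genes. Psma4, which encodes alpha3, had the smallest adjusted p of all members. It was at 104 to 124 CPM (median 109) in TLCP and 133 to 158 CPM (median 145) in Tfh, so every TLCP library was below every Tfh library. The log2 fold change was -0.38 (SE 0.065, adjusted p = 0.00016 by edgeR), and 25.6% of its words occur elsewhere in the genome. Psma2, at -0.20 (adjusted p = 0.020), was the other, and the remaining 5 lay between -0.16 and 0.003. Of the 4 structural beta subunits, Psmb1 (beta6) was lower, at 104 to 127 CPM (median 112) in TLCP and 121 to 155 CPM (median 145) in Tfh. It had a fitted log2 fold change of -0.29 (SE 0.076, adjusted p = 0.0053) and was lower in 6 of 6 pairs, with an overlap.

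In the regulatory particle, all 6 ATPase genes had negative log2 fold changes and 2 were called lower, against 50.6% and 16.4% of all genes. Psmc5 (Rpt6) was at 60.4 to 69.2 CPM (median 66.5) in TLCP and 70.2 to 91.5 CPM (median 76.0) in Tfh, without overlap. The test gave a fitted log2 fold change of -0.25 (SE 0.076, adjusted p = 0.016). The value was -0.06 (adjusted p = 0.65) among libraries numbered 1 to 3 and -0.45 (adjusted p = 0.0056) among those numbered 4 to 6. Psmc2 (Rpt1) had a log2 fold change of -0.19 (adjusted p = 0.017), without overlap. Of the 11 other subunits Psmd11 and Psmd8 were lower. That made 4 of the 17 genes of the particle lower, or 23.5%, against 16.4% of all genes. Psmd11 (Rpn6), a lid subunit, was at 59.4 to 70.9 CPM in TLCP and 73.5 to 84.2 CPM in Tfh, without overlap, with a fitted log2 fold change of -0.25 (SE 0.067, adjusted p = 0.0066). Psmd3 (Rpn3), at 0.27 (SE 0.11, adjusted p = 0.081), was the 1 gene with a positive value among these 17 genes of the regulatory particle. Adrm1 (Rpn13), a ubiquitin receptor of the particle whose symbol is outside the rule, was higher, at 0.58 (SE 0.17, adjusted p = 0.011).

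In all, 4 members had libraries of the 2 populations that did not overlap, namely Psma4, Psmc2, Psmc5 and Psmd11, each lower in TLCP, as were 8.86% of all genes. No member was higher without overlap, as 8.3% of all genes were.

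The assembly chaperones held the largest difference. Psmg1 (PAC1), which pairs with Psmg2 to start the alpha ring, was at 9.30 to 15.9 CPM (median 12.2) in TLCP and 15.3 to 25.7 CPM (median 19.1) in Tfh. It was lower in TLCP in 6 of 6 pairs, with 1 TLCP library just above the lowest Tfh library. The log2 fold change was -0.75 (SE 0.15, adjusted p = 0.00090 by edgeR), a 1.68-fold difference, and was similar in libraries numbered 1 to 3 (-0.73) and 4 to 6 (-0.77). Psmg2, Psmg3 and Psmg4 had log2 fold changes of -0.09, 0.45 and -0.25, with adjusted p-values of 0.59, 0.28 and 0.41. Psmg3 and Psmg4 had 336 and 677 reads in all, so that their SEs, 0.31 and 0.22, were wide. Of the base chaperones, Psmd5 (S5b) was lower, at 32.4 to 38.3 CPM (median 36.5) in TLCP and 32.9 to 49.1 CPM (median 46.2) in Tfh, with a fitted log2 fold change of -0.31 (SE 0.095, adjusted p = 0.016). Psmd9 and Psmd10 were not called.

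The other activators and the inhibitor did not pass the test. Psme3 (PA28 gamma), a nuclear activator that is not interferon-induced, was at 114.5 to 138 CPM in TLCP and 116 to 137 CPM in Tfh, with a log2 fold change of 0.004 (95% interval -0.12 to 0.13). Psme4 (PA200) had a log2 fold change of 0.07 (95% interval -0.06 to 0.21) and Psmf1 (PI31) of -0.04 (95% interval -0.23 to 0.15). Psma8, the alpha subunit of the testis, had 25 reads over all libraries and Psmb11, the beta subunit of the thymic cortex, had 2. Neither was tested, and in each population their mean level was below the floor of 3 counts.

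The calls depended on how the libraries were scaled to each other. With library totals alone in place of TMM, the median log2 fold change of all genes rose from -0.004 to 0.17, and the share of all genes called was 26.7% higher and 7.43% lower. The members called were then 6 higher (Psmb8, Psmb9, Psmb10, Psmd3, Psme2 and Psme4) and 1 lower (Psmg1), and the median of the 31 constitutive genes was 0.04. Relative to the median of all genes, that of the constitutive genes was -0.13 under both scalings. Psmb9 was 0.32 above the median of all genes under both, Psmb10 0.44 and 0.45, and Psmb8 0.09 and 0.10. On the deposited TPM, limma on log2(TPM + 1) had a median of 0.25 for all genes. It called 5 of 46 members higher and 0 lower, against 3180 and 473 of all 12753 genes. There Psmc5 and Psmd11, called lower under TMM, had log2 differences of 0.04 and 0.03. Of the assigned reads, 1 gene that resembles ribosomal RNA took 12.9% to 24.1% in TLCP and 16.6% to 30.9% in Tfh. Without it and the immunoglobulin genes, TMM scaling again called the 2 higher and 10 lower members. Of all 11884 genes, that fit called 1923 higher and 2007 lower.

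**Figure D4:**
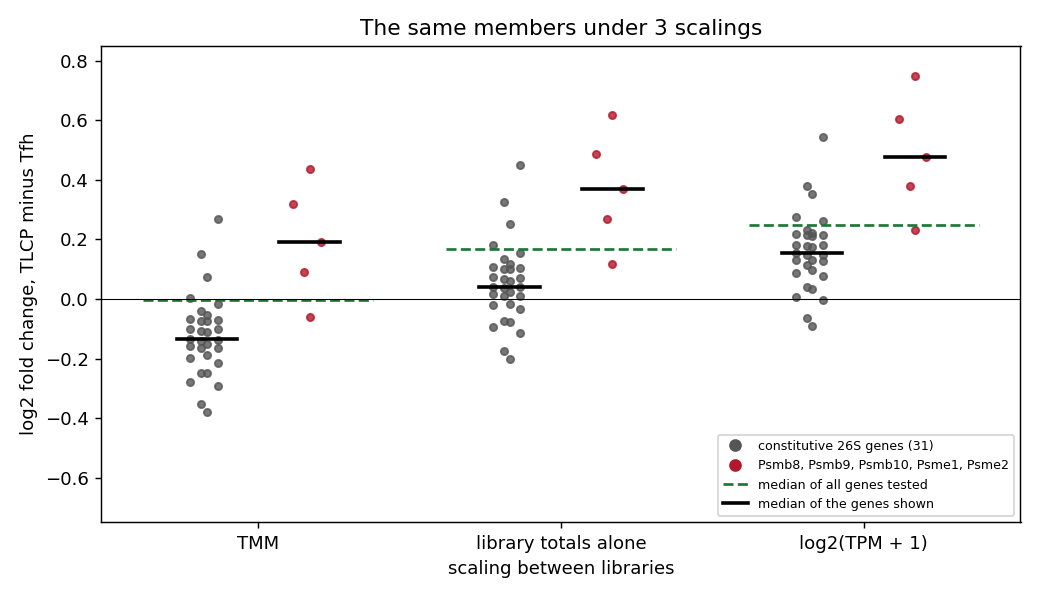
Log2 fold changes of the 31 constitutive 26S genes (grey) and of Psmb8, Psmb9, Psmb10, Psme1 and Psme2 (red) under TMM, library totals alone and log2(TPM + 1), with the median of each set (black) and of all genes tested (green, dashed). The whole cloud rises by about the shift of the green line, and the grey median stays below it and the red median above it in each of the 3 columns.

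Levels of different subunits were compared per length. By the deposited TPM, which divides by the union of all exons of a gene, the 31 constitutive genes ranged from 17.7 TPM (Psma3) to 234 TPM (Psma6), a 13.2-fold range with a median of 68.6 TPM, although each subunit has a fixed place in the particle. The highest member was Psme1 at 277 TPM, followed by Psma6 and by Psmb8 at 148 TPM. Psmb9 was at 61.4 TPM, Psmb10 at 52.6, Psmb5 at 23.7, Psmb6 at 52.9 and Psmb7 at 34.8 TPM over all 12 libraries. The union of exons was 1 to 3.28 times the longest coding transcript and over 2 times in 16 of the 48 genes. Per kilobase of the longest coding transcript the order at the top was Psme1, Psmb8, Psma6 and Psma4, and the constitutive genes spanned 11.8-fold, from Psmb5 to Psma6. With that length the share of Psmb8, Psmb9 and Psmb10 was 71.2% ± 1.76 in TLCP and 64.9% ± 2.32 in Tfh (SD, n = 6), again higher in 6 of 6 pairs without overlap. The level of Psmb10 relative to Psmb7 depended on the length used: it was higher than Psmb7 in TLCP with the union (log2 ratio 0.96) and lower with the longest transcript (-0.23), while the difference between the populations was 0.83 with both. Of the 48 genes, 10 had over 10% of their words elsewhere in the genome, and Psme2, Psmb3, Psma5 and Psmb5, at 50% to 59.3%, had the largest shares.

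The related genes of the pathway, come from lists chosen with earlier results in view. Of 11 genes of class I antigen processing, 5 were higher and 0 lower in TLCP, against 16.8% and 16.4% of all genes. With the replicate block 5 were higher and 1 lower: Pdia3, a disulfide isomerase of the peptide-loading complex, at -0.16 (adjusted p = 0.033, and 0.051 without the block), lower in 6 of 6 pairs. Tap1, which shares its promoter window with Psmb9, was at 283 to 349 CPM (median 296) in TLCP and 222 to 279 CPM (median 235) in Tfh, without overlap. Its log2 fold change was 0.34 (SE 0.071, adjusted p = 0.00098 by edgeR), next to 0.32 for Psmb9. Tap2 (0.28, adjusted p = 0.0087), Tapbp, which encodes tapasin (0.28, adjusted p = 0.0011), and Tapbpl, which encodes its homolog TAPBPR (0.36, adjusted p = 0.0019), were also higher, as was Calr. The genes of the presented complex, H2-K1, H2-D1 and B2m, had log2 fold changes of 0.10, 0.11 and 0.05 and were not called. With library totals alone, 7 of the 11 genes were higher and 0 lower, against 26.7% and 7.43% of all genes.

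Of 13 regulators of immunoproteasome genes, 8 were higher and 2 lower, against 16.8% and 16.4% of all genes. Irf1, the interferon-induced factor that acts on Psmb8, Psmb9, Psmb10 and Tap1, was at 249 to 362 CPM (median 290) in TLCP and 147 to 224 CPM (median 176) in Tfh, without overlap. Its log2 fold change was 0.72 (SE 0.11, adjusted p = 0.00017). Nlrc5, the transactivator of MHC class I genes and of Psmb9 and Tap1, was at 384 to 433 CPM (median 400.4) in TLCP and 270 to 322 CPM (median 287) in Tfh, without overlap, with a log2 fold change of 0.48 (adjusted p = 2.4e-06). Stat2 (0.57, adjusted p = 3.0e-06), a factor activated by the type I interferon receptor, was also higher, and Ifngr1, a chain of the interferon-gamma receptor, had a log2 fold change of 1.69 (adjusted p = 0.00016). Jak2, a kinase of that receptor, was lower, at -0.71 (adjusted p = 3.0e-06). Ifngr1 and Jak2, which work at the same receptor, thus moved in opposite directions. With library totals alone, 9 of the 13 were higher and 1 was lower, against 26.7% and 7.43% of all genes.

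Of 17 factors that assemble the proteasome or bind it, 2 were higher and 7 lower, against 16.8% and 16.4% of all genes. Pomp, the maturation protein of the core and itself needed for immunoproteasome assembly, was at 57.8 to 80.3 CPM in TLCP and 77.3 to 95.5 CPM in Tfh, with a log2 fold change of -0.31 (adjusted p = 0.0084). Akirin2, which brings proteasomes into the nucleus, had the lowest value of the list, -0.42 (adjusted p = 0.00023), without overlap. Txnl1 and Ubqln1, which bind the regulatory particle, were lower at -0.36 (adjusted p = 0.00050) and -0.30 (adjusted p = 0.0011). With library totals alone, 0 of the 17 were lower and 2 higher, against 7.43% and 26.7% of all genes.

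Of 9 tested genes of the NRF1 pathway, 3 were higher and 1 lower, against 16.8% and 16.4% of all genes. Nfe2l1, which encodes NRF1 itself, had a log2 fold change of -0.14 (adjusted p = 0.21). Syvn1 (0.96, adjusted p = 1.5e-05) and Sel1l (0.41, adjusted p = 0.0026) encode the ubiquitin ligase complex of the endoplasmic reticulum that handles NRF1 and many other proteins, and Ddi2 (0.25, adjusted p = 0.021) the protease that activates NRF1. Syvn1 and Sel1l are abundant in secretory cells, and the plasma cell markers given above were also higher in TLCP. Whether they come from the T cells was not tested. Ddi2 was not called without TLCP 5 (adjusted p = 0.063). Of 6 genes of ubiquitin and its activating enzymes, 1 was lower and 0 higher, against 16.4% and 16.8% of all genes. The lower gene was Uba1, at -0.19 (adjusted p = 0.038), a call that was lost in 7 of 12 fits that left out 1 library. Ubb was not called.

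**Figure D5:**
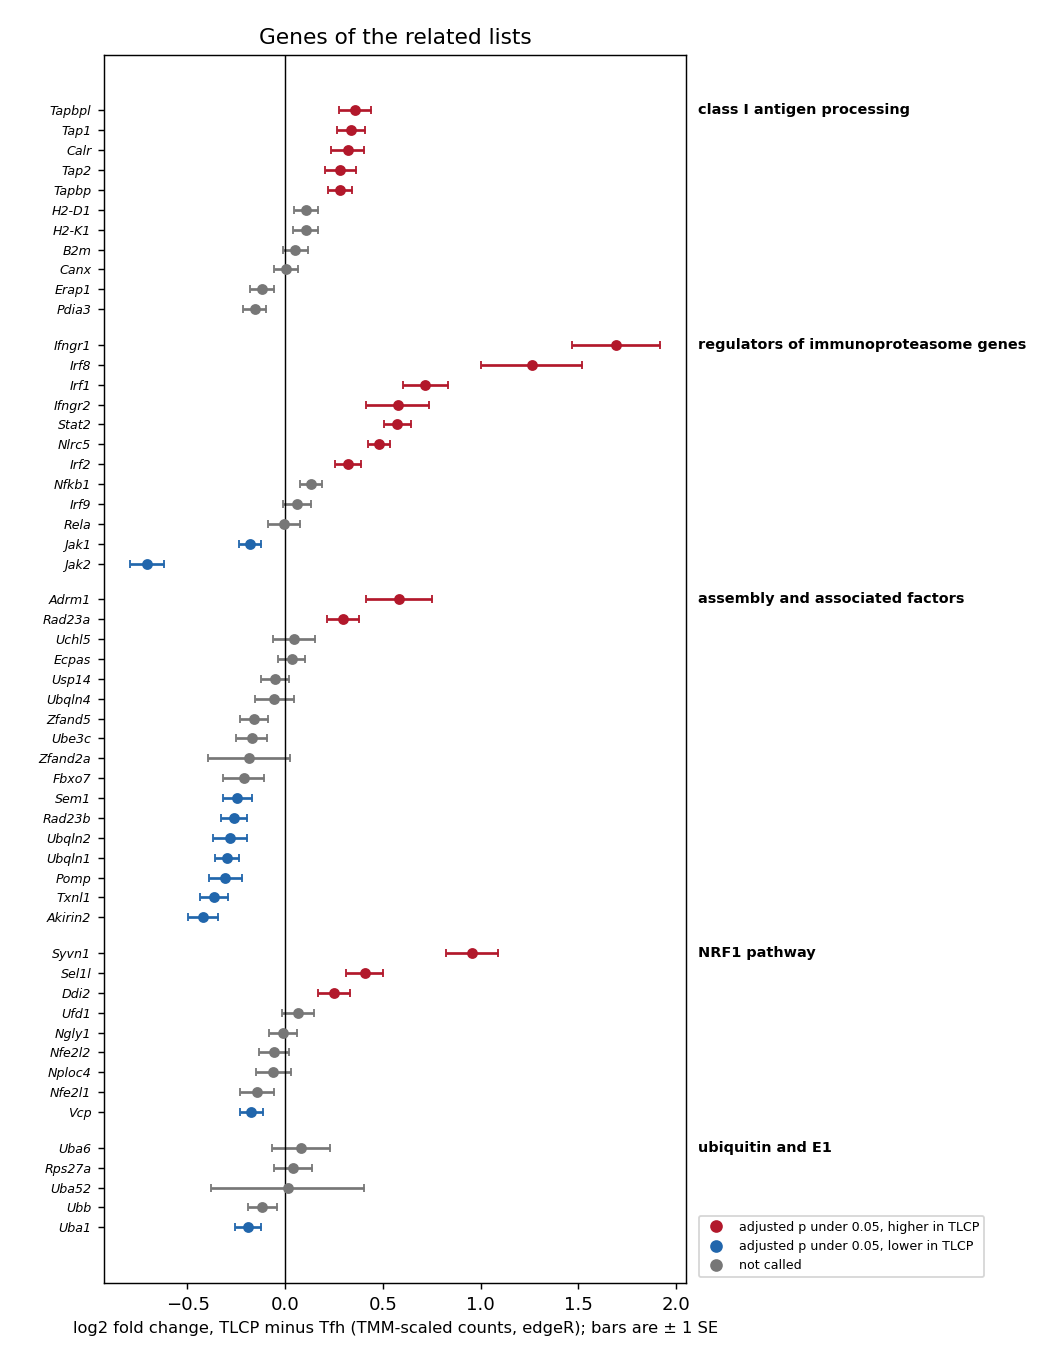
Log2 fold change (TLCP minus Tfh, TMM-scaled counts) of genes of 5 related lists; points are edgeR estimates, bars ± 1 SE, and colour marks an adjusted p under 0.05. Tap1, Tap2, Tapbp, Tapbpl and Calr and most regulators lie to the right, and Jak2, Jak1, Pdia3 and most assembly factors to the left.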

How the data were processed

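Polyadenylated RNA of sorted CD4 T cells was sequenced in 12 libraries, 6 per population. The submitters' processing notes name STAR 2.7.1a, bcl2fastq 2.20, DESeq2 1.30.1 and the build GRCm38, and no release of the gene annotation is named in the labels. The authors deposited raw read counts per gene in STAR's gene count layout, of which the column for the gene's own strand was taken. The 4 classes that name no gene, 44.9% to 56.4% of reads, stayed out of library sizes and tests. The authors' deposited table lists the log2 fold change and p-value of each gene from DESeq2, and a normalized signal that is the count divided by a size factor. For 100% of the values of that signal whole reads were recovered (tolerance 0.01 reads), equal to the counts, and a refit on them called 3983 genes. In the TPM table that the authors deposited, 9409 of 9544 genes checked had the count divided by the union of exons, within a tolerance of 0.01.

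In R 4.3.3, edgeR 4.0.16 kept genes by filterByExpr, scaled libraries by TMM and compared TLCP with Tfh by the robust quasi-likelihood test (2-sided, Benjamini-Hochberg over all genes, threshold 0.05). SE is the log2 fold change over the square root of F, and 95% intervals are 1.96 SE. CPM are TMM-scaled. The fit was tested on simulated data. Limma 3.58.1 was used on log2(TPM + 1), and DESeq2 1.42.0 as an alternative. Ratios were computed within libraries. Positions are from GENCODE M21, in which 54821 of the 55401 gene spans were identical to those in the files. Promoter windows and motif matches are from RefSeq (GRCm38.p6).

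The genes, the lists and the tests were chosen with earlier results of these data known. Named are the 5 immunoproteasome and PA28 genes, Psmb5 to Psmb7, up to 6 other members called in each direction by smallest p, Psma8, Psmb11, Psme3, Psme4, Psmf1, Psmb1, the extremes of TPM, and of each related list the 3 genes with the smallest p plus Pomp, Nfe2l1, Nlrc5, Irf1, Tap1 and Tap2. Of the genes this rule names, 2 are not reported here. Other genes are named where a short count is spelled out, after their values were seen.

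Libraries with the same number deviated together from their group means (correlations 0.127 to 0.318 in the 6 pairs), so the numbers were taken to pair them, and 9 of 12 libraries correlated best with their own number. The main test had no block. No label names a batch, and libraries numbered 1 to 3 and 4 to 6 were also fitted apart. The series description gives 6 mice but no label ties a library to 1 of them, so p-values measure the spread between these libraries. Libraries of a population differed by more than counting noise in every pair, with a chi-square of at least 6.66 per degree of freedom. Added once the data had been seen were the fit on recovered reads, the fit without TLCP 4 and TLCP 5, and the ratio per longest coding transcript.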

Additional observations from a re-analysis of the deposited data

Results flagged for a closer look

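In 6 of the 106 groups of 6 libraries checked, 1 library stood apart from the other 5 by more than Dixon's critical value, and chance alone flags about 1 group in 20. Psma6 was at 107 CPM in Tfh 2 against 128 to 137 CPM in the other Tfh libraries. Psmd5 was at 32.9 CPM in the same library against 44.4 to 49.1 CPM. Psme3 was at 114.5 CPM in TLCP 4 against 130.1 to 138 CPM in the other TLCP libraries. Psmg4 was at 8.92 CPM in Tfh 4 against 5.26 to 6.46 CPM. The log2 ratio of Psme2 to the median of Psma1 to Psma7 was 0.63 in Tfh 4 against 0.35 to 0.44 in the other Tfh libraries. The log2 ratio of Psme1 to Psme2 was 1.22 in TLCP 4 against 1.05 to 1.11. Without Tfh 2, 13 members were called lower in place of 10, with Psma6, Psmb6 and Psmc3 added. That fit called 1956 of all 12246 genes lower.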

How the results depend on the processing

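The count of members called, 2 higher and 10 lower, was 6 and 1 with library totals alone, against 26.7% and 7.43% of all genes. It was 5 and 0 by limma on log2(TPM + 1), on log2(TPM + 0.1) and on log2(TPM + 1) with no filter. Of all genes, these called 3180 higher and 473 lower of 12753, 3115 and 463 of 12753, and 2623 and 444 of 26259. Members called were 4 and 5 in libraries numbered 1 to 3 only and 0 and 8 in those numbered 4 to 6. Without TLCP 4 and TLCP 5 they were 1 and 8. All genes called in these 3 fits were 1700 higher and 1636 lower of 12090, 1450 and 1342 of 12265, and 1513 and 1616 of 12299. Leaving out 1 library at a time gave 1 to 3 members higher and 10 to 13 lower, with 3489 to 4008 of all genes called. With the replicate block, where the number pairs the libraries, 4 and 10 members were called, against 19.1% and 18% of all genes. Psme2 and Psmd3 were added, and the block ended no member's call. RLE size factors, upper quartile scaling, DESeq2 and a stricter filter each gave 2 and 10. So did unstranded counts, the recovered reads and leaving out immunoglobulin and ribosomal RNA-like genes. Limma voom gave 3 and 10, and no filter 2 and 8. Of all genes, RLE called 2079 higher and 1868 lower of 12015, upper quartile scaling 1992 and 1988 of 12015, and DESeq2 2418 and 1993 of 17139. The stricter filter called 2028 and 1984 of 12149, unstranded counts 2002 and 2006 of 12243, and the recovered reads 2014 and 1969 of 12015. Leaving out immunoglobulin and ribosomal RNA-like genes called 1923 and 2007 of 11884. Voom called 2021 and 2041 of 12015, and no filter 2149 and 1925 of 26259. Of the related lists, 18 genes were higher and 11 lower, and the lower count was 1 with library totals alone and by limma on either TPM scale, 0 on TPM with no filter, and 7 without TLCP 4 and TLCP 5. On log2(TPM + 1), log2(TPM + 0.1) and log2(TPM + 1) with no filter, Psmc5 turned to 0.0417, 0.042 and 0.0417, Psmd11 to 0.0341, 0.0354 and 0.0341, and Uba1 to 0.1009, 0.1014 and 0.1009, none called. The medians of all genes in these fits were 0.2488, 0.2792 and 0.1097, above the values of these genes, and -0.0041 in the main fit. The cause was not tested. Psmg1 was called lower in each scaling of the counts, and on log2(TPM + 1) it was -0.44 (adjusted p = 0.077 by limma). The difference in the log2 ratio of immunoproteasome to constitutive catalytic genes was 0.33 to 0.41 leaving out 1 library, 0.42 from CPM, 0.47 from unstranded CPM, 0.43 from means of log2 values and 0.42 per longest coding transcript. Psma8 and Psmb11 had too few reads for the test, and of the tested members Psmg3 had the fewest.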
